A study of Homo sapiens with 13 samples.

Results

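The genes of the mitochondrial ribosome were taken as all protein-coding genes of the count table whose symbol starts with MRPL or MRPS followed by a number. The rule found 78 of 45744 genes, 49 of the large subunit (MRPL) and 29 of the small subunit (MRPS). Another 7 genes with such a name, pseudogenes and antisense genes, were left out. RNA sequencing measured them in HuT78, an established line of malignant T cells from Sézary syndrome, a lymphoma of the skin and blood. All cells were treated for 72 h: 4 libraries with chaetocin at 10 nM, 3 with F5446 at 10 nM (replicates 2 to 4), 4 with romidepsin at 1 µM, and 2 with the solvent DMSO (replicates 1 and 4). Chaetocin is a fungal compound that inhibits histone H3 lysine 9 methyltransferases, F5446 is a code-named inhibitor of the methyltransferase SUV39H1, and romidepsin inhibits histone deacetylases. Whether the replicates came from separate cultures of this 1 line is not stated, so p-values cover the spread between libraries only, which may be technical.

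Mitochondria hold their own ribosome, which makes the few proteins encoded in mitochondrial DNA, all of them subunits of the respiratory chain and the ATP synthase. Its rRNAs are transcribed inside the organelle, whereas every one of its proteins is encoded in the nucleus, made in the cytosol and imported. The small subunit decodes the mRNA, and the large subunit joins the amino acids and feeds the new protein to the inner membrane. Many of its proteins have bacterial relatives, and others are found only in mitochondrial ribosomes.

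Library totals ran from 19901052 to 30816188 counts, and 17252 genes had enough counts to be tested. Mitochondrially encoded genes took 5.22 to 15.9% of counts, with the highest share in chaetocin replicate 3. Of 9 T cell markers in the table, 8 averaged over 1 CPM (a count normalized for library size), and their summed level was 909 to 1505 CPM. CD28 was the exception at 0.145 CPM. Of the markers of other cell types, 2 of 4 B cell genes (CD79A at 46.7 CPM, with PAX5 near 0), 0 of 4 myeloid genes, 2 of 5 fibroblast genes and 3 of 4 epithelial genes (KRT8 at 62.8 CPM, with KRT19 at 0) averaged over 1 CPM. In bulk RNA, fewer cells of a type and less RNA per cell cannot be told apart.

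Together the 78 genes took 0.340 to 0.460% of the counts of a library. The most abundant members of the large subunit were MRPL4 at 163.9, MRPL3 at 152.8 and MRPL11 at 128.2 CPM, as means over the 13 libraries. MRPL3 lies near the site where peptide bonds are made, and MRPL11 forms the base of the stalk that recruits translation factors. In the small subunit, MRPS34 was at 89.6, MRPS15 at 81.0 and MRPS23 at 72.7 CPM. Levels were also divided by the exon bases of all annotated transcripts of a gene together, which allows only a rough comparison of genes. By this, the highest levels were those of MRPL18 at 93.1 and MRPS34 at 81.7 CPM per kb. The lowest of the tested genes was MRPL46 at 0.248 CPM per kb, with 6432 such bases. MRPS17 at 1.40 and MRPS28 at 1.59 CPM per kb were the lowest tested genes of the small subunit, although a ribosome holds its proteins in set numbers. Other genes share 27.0% of the exon bases of MRPS17 and 35.8% of those of MRPS28. The part of this overlap in their low values was not tested.

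MRPL38 and MRPS24 had too few counts to be tested. MRPL38 had 20 counts in all 13 libraries together and 0 in 7 of them, and MRPS24 had 8 counts and 0 in 11. Romidepsin replicate 2 held 10 of the 20 and 7 of the 8. A count of 0 allows a level of up to 0.0939 to 0.150 CPM, depending on the library, taking 3 counts as the limit and covering counting error only. Other genes of GENCODE 29 share 41.1% of the exon bases of MRPL38, and URGCP-MRPS24 shares 23.2% of those of MRPS24. AC139530.2 shares 68.2% of the exon bases of MRPL12, which averaged 11.1 CPM. The sources used here do not give the strand setting of the counting, so values of overlapping genes, MRPL12 among them, are uncertain, and the part of overlap in the low counts was not tested.

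The summed level of all members was 4146 and 3302 CPM in DMSO replicates 1 and 4. It was 4037, 3981, 4071 and 3764 CPM in chaetocin replicates 1 to 4, and 4497, 3658 and 3458 CPM in F5446 replicates 2 to 4. Romidepsin replicates 1 to 4 held 3746, 3734, 3867 and 3632 CPM. All 8 chaetocin and romidepsin libraries lay between the 2 DMSO libraries, and the F5446 libraries overlapped with them. The group means were 3724 ± 597 CPM for DMSO (SD, n = 2), 3963 ± 138 for chaetocin (n = 4), 3871 ± 551 for F5446 (n = 3) and 3745 ± 96.2 for romidepsin (n = 4), so the groups differed by less than the DMSO pair did.

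**Figure D1:**
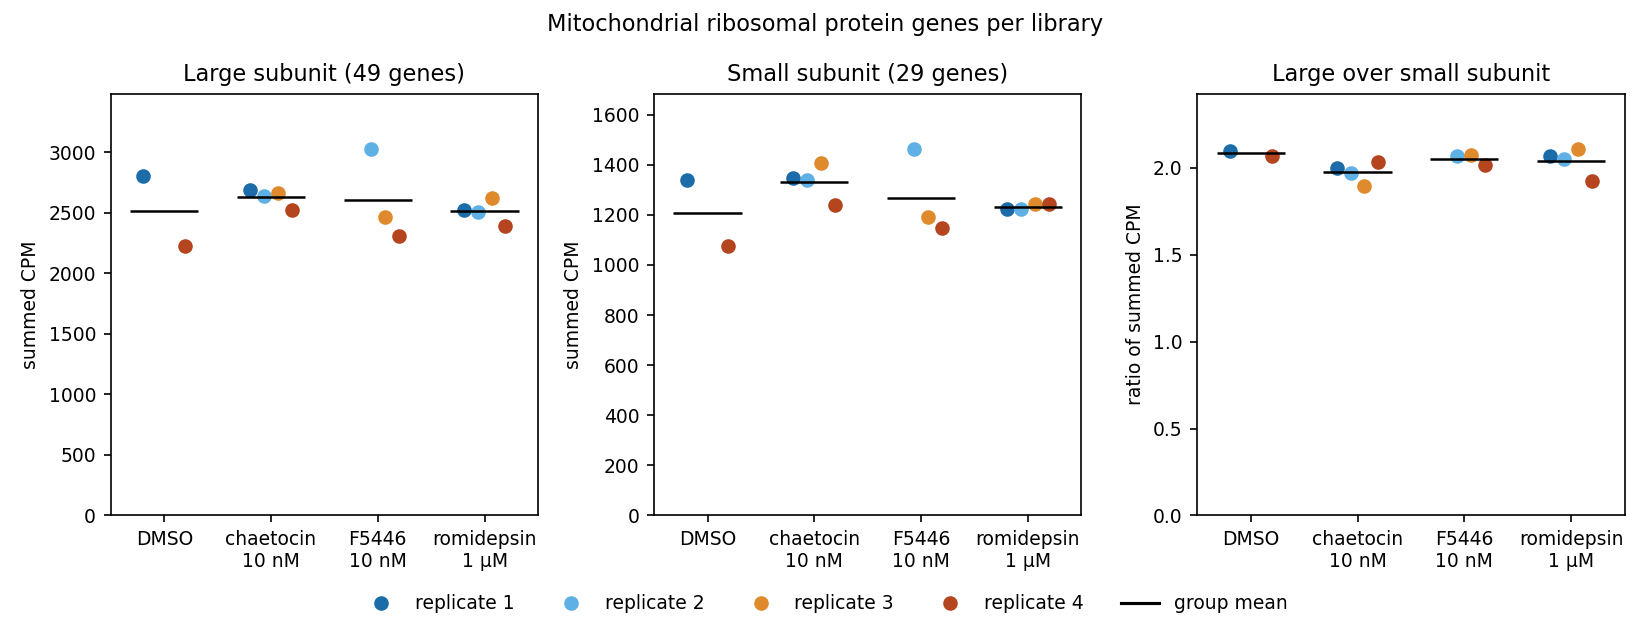
Summed CPM of the 49 large-subunit genes (left) and the 29 small-subunit genes (middle) and their ratio (right), with 1 point per library, coloured by replicate number, and a line at each group mean. In both sums the DMSO pair lies further apart than the group means do, and all 13 ratios lie between 1.90 and 2.11.

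The balance of both subunits varied little from library to library. The large subunit was summed at 2517 ± 412 CPM with DMSO, 2631 ± 73.3 with chaetocin, 2604 ± 379 with F5446 and 2512 ± 95.9 with romidepsin. The small subunit was at 1207 ± 185, 1333 ± 68.8, 1267 ± 173 and 1233 ± 11.1 CPM in the same order (SD; n = 2, 4, 3 and 4). The ratio of the large to the small sum was 2.03 ± 0.0658 over the 13 libraries (SD) and ranged only from 1.90 in chaetocin replicate 3 to 2.11 in romidepsin replicate 3. Its group means were 2.08 ± 0.0228 with DMSO, 1.98 ± 0.0591 with chaetocin, 2.05 ± 0.0331 with F5446 and 2.04 ± 0.080 with romidepsin. All 4 chaetocin libraries were below the DMSO libraries, with 2.04 as the highest of the former and 2.07 as the lowest of the latter. For single genes, 11.3% of all genes did not overlap between these groups. As a difference of mean log2 CPM the groups overlapped, with 0.19 in chaetocin replicate 4 and 0.17 in DMSO replicate 4. The F5446 and romidepsin ratios overlapped with DMSO. Counts, ranks and medians by subunit follow the symbols, which do not fully follow the structure. MRPS30 and MRPS18A are parts of the large subunit, and MRPS36 is a subunit of the 2-oxoglutarate dehydrogenase complex. With the 2 former genes moved and MRPS36 left out, the log2 ratio was 1.19 (1.12 to 1.24 over libraries) in place of 1.02 (0.92 to 1.08).

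Within treatment groups, the members differed widely in how steady they were. MRPL1, part of the mobile stalk beside the exit site for tRNA, had the largest SD of log2 CPM within groups at 0.96, followed by MRPL15 and MRPL36 at 0.51 each. In the small subunit MRPS36, MRPS21 and MRPS11 had the largest spread, with 0.36, 0.34 and 0.30. The steadiest genes were MRPL30 at 0.084, MRPL19 at 0.087 and MRPS18A at 0.090, followed in the small subunit by MRPS31 at 0.12. These genes were taken among members with a mean of at least 5 CPM.

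**Figure D2:**
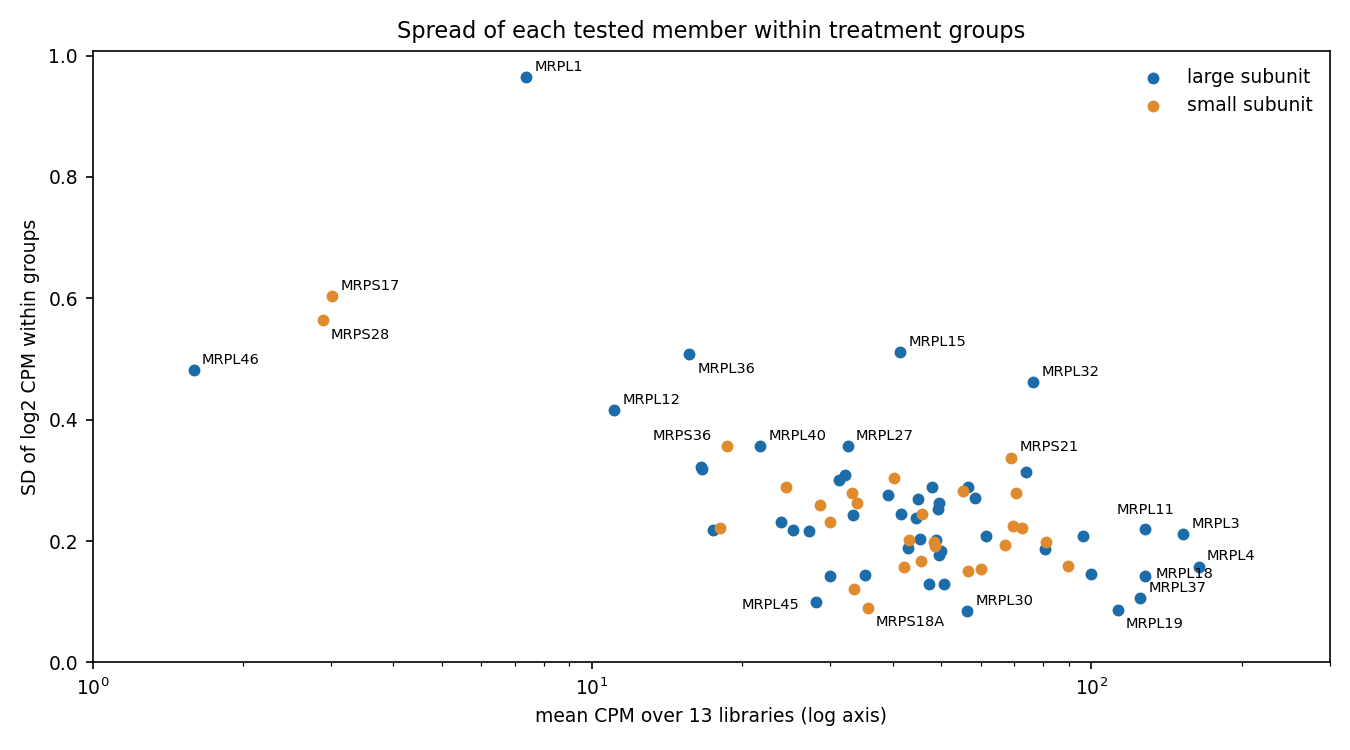
SD of log2 CPM within treatment groups against mean CPM over 13 libraries (log axis), with 1 point per tested member and the subunit by colour. MRPL1 stands highest at 0.96, and MRPL19, MRPL30, MRPL45 and MRPS18A lie below 0.1.

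Chaetocin against DMSO addresses the response to the methyltransferase inhibitor. The median log2 fold change was 0.17 for the small subunit, with 22 of 28 genes above 0, and 0.09 for the large subunit, with 32 of 48 above 0. Of both subunits, 54 of 76 were above 0, but 34 of 77 without DMSO replicate 4 and 69 of 77 without DMSO replicate 1. Over all genes tested it was 0.01, with 51% above 0. By edgeR, 0 of 76 members were called (adjusted p under 0.05), beside 0% of all genes, with 1 member and 4.07% of all genes at an unadjusted p under 0.05. DESeq2 also called 0 members, beside 0.058% of all genes. The 1 member was MRPS9, a conserved protein of the small subunit named after its values were seen. It was at 46.9, 39.1, 55.0 and 43.2 CPM with chaetocin and 37.5 and 34.6 with DMSO. The groups did not overlap. MRPS9 had 0.35 on the log2 scale, with a 95% CI of 0.00 to 0.70, and the adjusted p was 1 by edgeR.

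Libraries of chaetocin and DMSO did not overlap for 8 of 76 members, beside 11.3% of all genes, and all 8 were higher with chaetocin, beside 5.22% of all genes. By symbol, 1 of 48 was in the large subunit (MRPL45, which anchors the ribosome to the inner membrane) and 7 of 28 in the small subunit. The 7 were MRPS9, MRPS15, MRPS16, MRPS18A, MRPS18B, MRPS18C and MRPS26, of which MRPS18A is part of the large subunit by structure. MRPS16, a conserved protein of the small subunit, was at 85.0, 90.5, 63.6 and 64.3 CPM with chaetocin and 63.4 and 54.1 with DMSO. The log2 value of 0.37 had a 95% CI of -0.06 to 0.80. MRPS18A, MRPS18B and MRPS18C descend from 1 bacterial protein and had log2 fold changes of 0.18, 0.27 and 0.33. Among members with a mean of at least 5 CPM, the highest in the small subunit were MRPS36 at 0.46 (95% CI -0.10 to 1.02) and MRPS16, and in the large subunit MRPL41 at 0.36 and MRPL34 at 0.30. The lowest in the large subunit were MRPL23, at the exit of the peptide tunnel, and MRPL54 at -0.22 each. In the small subunit they were MRPS6 at -0.22 and MRPS27, a pentatricopeptide repeat protein, at -0.15. Within replicate numbers 1 and 2 the medians were -0.08 (large) and 0.02 (small), and within 3 and 4 they were 0.23 and 0.31; each of these rests on 1 DMSO library. Without DMSO replicate 4 the large-subunit median was -0.09, and without DMSO replicate 1 it was 0.26.

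F5446 was compared with DMSO to ask what the SUV39H1 inhibitor changes. By edgeR, 0 of 76 members were called, beside 0% of all genes, and by DESeq2 also 0, beside 0.0058%, with 1 member and 2.48% of all genes at an unadjusted p under 0.05 by edgeR. The medians were 0.07 for the large subunit (33 of 48 above 0) and 0.11 for the small subunit (17 of 28), beside 0.01 for all genes, of which 51.2% were above 0. The 1 member, named after its values were seen, was MRPS28, a low gene with 5.79, 3.43 and 2.72 CPM with F5446 and 1.96 and 1.45 with DMSO. This gave 1.22 on the log2 scale, with a 95% CI of 0.11 to 2.34 and an adjusted p of 1 by edgeR. The chaetocin libraries reached 4.44 CPM for the same gene, and the romidepsin libraries 3.99. The exon overlap of MRPS28, given above, leaves these values uncertain.

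MRPL9, a conserved protein of the large subunit, was at 53.4, 51.9 and 51.3 CPM with F5446 and 46.6 and 38.8 with DMSO, without overlap (log2 fold change 0.29, 95% CI -0.05 to 0.63). Libraries did not overlap for 8 of 76 members, beside 18.6% of all genes: MRPL9, MRPL10, MRPL19, MRPL28, MRPL34, MRPS18B and MRPS28 were higher (7 members, beside 9.44% of all genes) and MRPS2 lower (1 member, beside 9.12%). MRPL10, which carries the stalk protein MRPL12, had a log2 fold change of 0.19, MRPL34 of 0.40, MRPS18B of 0.27 and MRPS10 of 0.25. MRPL1 was at 8.08, 3.47 and 2.82 CPM with F5446 and 14.4 and 2.56 with DMSO. The fold change of -0.82 on the log2 scale had a 95% CI of -2.49 to 0.86, and the F5446 libraries lay between the DMSO pair. MRPL32, MRPS25 and MRPS14 had log2 fold changes of -0.29, -0.25 and -0.15. The medians within replicate numbers 1 and 2 were 0.18 (large) and 0.15 (small), from 1 library a group, and within 3 and 4 both were 0.12. Of both subunits, 50 of 76 members were above 0, but 26 of 76 without F5446 replicate 2 and 28 of 77 without DMSO replicate 4. Without F5446 replicate 2 the large-subunit median was -0.11, without DMSO replicate 4 it was -0.08, and without F5446 replicate 4 or DMSO replicate 1 it was 0.18 or 0.24.

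Romidepsin was compared with DMSO to ask what deacetylase inhibition changes. The medians were -0.01 for the large subunit (22 of 48 above 0) and 0.03 for the small subunit (16 of 28), beside 0.01 for all genes with 51% above 0. By edgeR, 0 of 76 members were called, beside 0% of all genes, and by DESeq2 also 0, beside 0.0058%. An unadjusted p under 0.05 was found by edgeR for 0 members, beside 2.82% of all genes. MRPS16 was at 75.5, 82.6, 65.7 and 68.2 CPM with romidepsin, all above the 63.4 and 54.1 of DMSO (log2 value 0.31, 95% CI -0.11 to 0.74). MRPL45 was at 30.5, 27.5, 29.1 and 31.4 CPM against 26.7 and 23.7 (log2 value 0.23, 95% CI -0.11 to 0.58). The libraries did not overlap for these and 5 other members, 7 of 76 in all, beside 10.3% of all genes: MRPS9, MRPS17 and MRPS18A were also higher (5 in all, beside 5.34%), and MRPL30 and MRPL43 lower (2, beside 4.98%).

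At the other end of members with a mean of at least 5 CPM, MRPL54 was at -0.44 on the log2 scale (95% CI -0.98 to 0.09). Its level was 19.2 ± 0.692 CPM in the 2 DMSO libraries and 14.1 ± 3.39 CPM in the 4 romidepsin libraries (means ± SD). MRPL12, the stalk protein that contacts translation factors, had -0.31, MRPS12, a protein of the decoding site, -0.26, and MRPS27 -0.15. MRPL34 and MRPS9 were at 0.31 and 0.24. The medians changed sign between the sets of replicate numbers, from -0.19 (large) and -0.15 (small) within 1 and 2 to 0.17 and 0.25 within 3 and 4, each against 1 DMSO library. They were -0.18 and -0.10 without DMSO replicate 4, with 20 of 77 members above 0, and 0.15 and 0.21 without DMSO replicate 1, with 61 of 77 above 0, in place of 38 of 76. With a term for the sets of replicate numbers, the large-subunit median was 0.01. The 3 comparisons share the DMSO libraries.

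**Figure D3:**
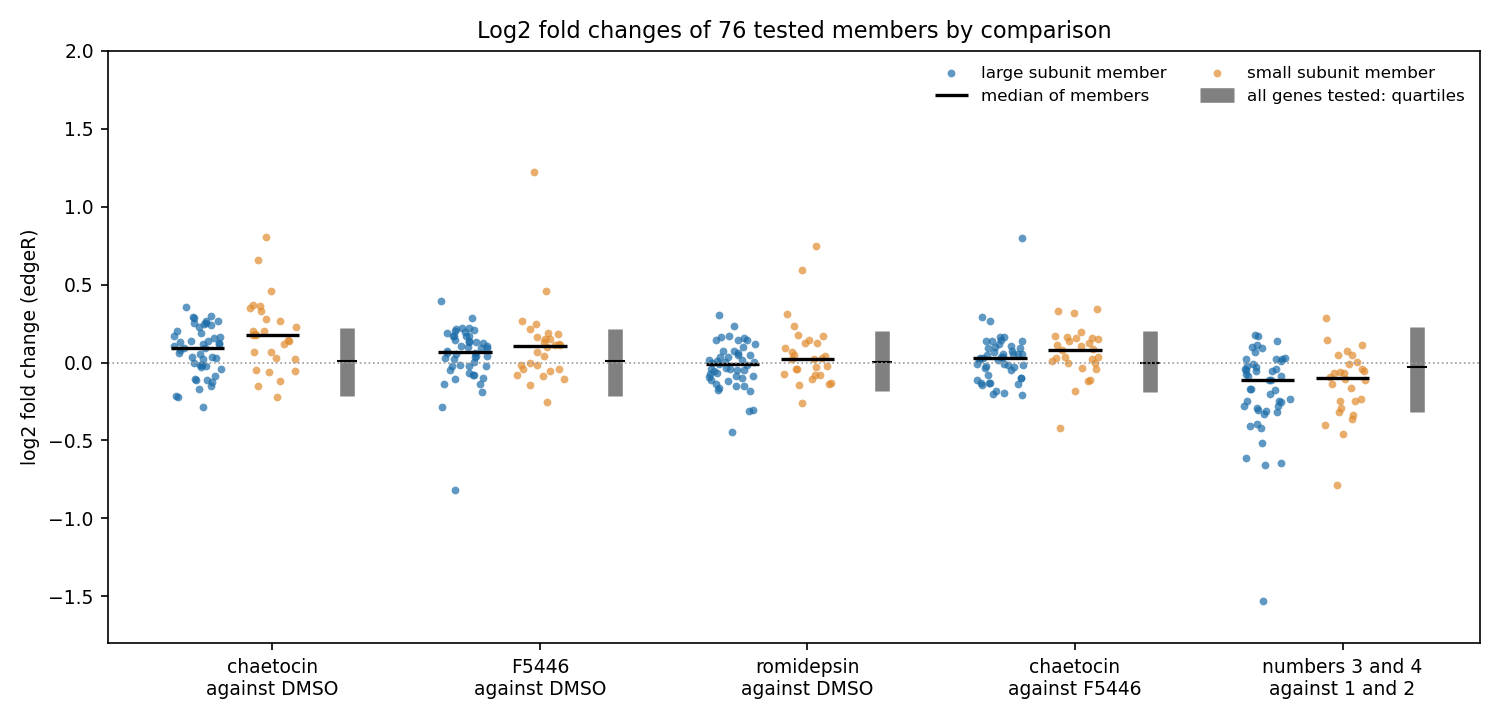
Log2 fold change (y axis) of each of the 76 tested members in the 4 comparisons of treatments and between replicate numbers, with points coloured by subunit, a line at each median, and a grey bar from the lower to the upper quartile of all genes tested. Most points of the treatment comparisons lie near 0, with medians from -0.01 to 0.17, and those between replicate numbers have medians of -0.11 and -0.10.

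Chaetocin and F5446, both at 10 nM, were compared directly. By edgeR, 0 of 76 members were called, beside 0% of all genes, and by DESeq2 also 0, beside 0.0116%. An unadjusted p under 0.05 was found by edgeR for 0 members, beside 3.4% of all genes. The medians were 0.03 (large, 27 of 48 above 0) and 0.08 (small, 20 of 28), beside 0.00 for all genes with 49.9% above 0. In the large subunit, MRPL1 had the highest log2 value, 0.80, with a 95% CI of -0.64 to 2.24, and MRPL21 the next at 0.29, while MRPL9 at -0.21 and MRPL33 at -0.20 were the lowest. Among small-subunit members with a mean of at least 5 CPM, MRPS36 and MRPS18C were the highest at 0.35 and 0.33, and MRPS22 and MRPS6 the lowest at -0.18 and -0.12. Of 76 members, 1 did not overlap between the groups, MRPL9, with 49.4, 45.5, 46.2 and 39.8 CPM with chaetocin, all under the F5446 libraries, beside 5.38% of all genes, and 3.11% in that direction. Without F5446 replicate 2 the large-subunit median was 0.15, without F5446 replicate 4 it was -0.05, with 25 of 76 members above 0 in place of 47, and within replicate numbers 1 and 2 and within 3 and 4 it was -0.23 and 0.14.

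Of the members chosen by their place or role in the ribosome, MRPS36, MRPS16, MRPL41, MRPS18C, MRPL12, MRPS12 and MRPL23 were among those described above. A further 15 lay between -0.13 (MRPS2) and 0.30 (MRPL40) in the 3 comparisons with DMSO. Of the stalk, MRPL11 had log2 fold changes of -0.01 with chaetocin, -0.11 with F5446 and -0.05 with romidepsin. At the tunnel exit, MRPL24 had 0.17, 0.06 and -0.05 and MRPL22 0.20, 0.06 and 0.02. MRPL44, which resembles RNase III, had -0.03, 0.11 and 0.06. MRPL37 and MRPL39, both specific to mitochondrial ribosomes, had 0.13, 0.04 and 0.01 and 0.12, 0.09 and -0.08. MRPL40 had 0.30, 0.13 and 0.14, and MRPL58, a peptidyl-tRNA hydrolase that frees stalled ribosomes, 0.09, 0.04 and -0.11. MRPS30, of the large subunit despite its symbol, had 0.14, -0.02 and -0.11. In the small subunit MRPS7, which organizes the head, had 0.12, -0.04 and -0.03, and MRPS2 0.07, -0.09 and -0.13. MRPS5, near the mRNA entry, had -0.06, -0.05 and 0.02, MRPS22 -0.05, 0.13 and -0.08, and MRPS34 0.17, 0.15 and 0.04. MRPS15 had 0.23, 0.19 and 0.10. All of their 95% CIs included 0.

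The rRNAs onto which these proteins assemble are made in the mitochondrion. MT-RNR1, the rRNA of the small subunit, was at 439.4 and 975.0 CPM in the DMSO libraries and at 1263, 1403, 1727 and 1137 CPM in the chaetocin libraries. The groups did not overlap (log2 fold change 0.97, SE 0.24, edgeR adjusted p = 0.636), and the DMSO pair differed widely. MT-RNR2, of the large subunit, was at 878.7 and 1472 CPM with DMSO and 2270 ± 739 with chaetocin (SD, n = 4), a log2 fold change of 0.95 (SE 0.26, edgeR adjusted p = 0.974). With romidepsin the log2 fold changes were 0.57 and 0.58, and with F5446 0.29 and 0.21. Against F5446, chaetocin had 0.68 and 0.74 (edgeR adjusted p = 0.999 for both). By edgeR 0 of 2 rRNAs were called in these 4 comparisons, while both had an unadjusted p under 0.05 with chaetocin, with romidepsin and for chaetocin against F5446. DESeq2 called 1 of them in 1 comparison, MT-RNR1 in chaetocin against DMSO (adjusted p = 0.0491 by DESeq2). The 13 proteins that this ribosome makes are encoded beside the rRNAs. In chaetocin against F5446 their mRNAs were above 0 in 13 of 13 (median log2 fold change 0.78), beside 49.9% of all genes. By edgeR 0 were called and 0 had an unadjusted p under 0.05. All mitochondrially encoded genes took 10.8, 9.67, 15.9 and 6.10% of counts in chaetocin replicates 1 to 4. They took 8.75, 5.22 and 6.86% in F5446 replicates 2 to 4, so the groups overlapped. Against DMSO, 12 of 13 of the mRNAs were above 0 with chaetocin (median 0.27), beside 51% of all genes. With F5446 0 of 13 were (median -0.47), beside 51.2%, and with romidepsin 5 of 13 (median -0.01), beside 51%. Here too 0 were called by edgeR.

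Members were called only between the sets of replicate numbers, which held 6 and 7 libraries, whereas DMSO had 2. Libraries numbered 3 or 4 were compared with those numbered 1 or 2 in a fit with a term for treatment. This split was chosen because earlier results of these data showed that libraries part by number, and the labels name no batch. Since the same counts gave the split, its p-values can be too small, and its calls are descriptive. Of 76 members, 15 were called, beside 15.8% of all genes, and all 15 were lower in numbers 3 and 4, beside 7.69% of all genes called lower. They were 10 of 48 large-subunit genes (MRPL1, MRPL3, MRPL12, MRPL15, MRPL20, MRPL27, MRPL32, MRPL35, MRPL47, MRPL49) and 5 of 28 small-subunit genes (MRPS10, MRPS11, MRPS16, MRPS23, MRPS25). The medians were -0.11 (large) and -0.10 (small), beside -0.03 for all genes, with 36 of 48 and 21 of 28 members below 0, beside 52.9% of all genes. DESeq2 called 17 members, all lower, beside 18.3% of all genes. These backgrounds include many weakly expressed genes. When the filter was raised to a mean of 5 CPM, edgeR called 16 of 73 members, all lower. Of the 10095 genes left, 27.2% were called, so members were not called more often than other genes there. The share of those genes called lower is not given here.

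MRPL1 was at 13.5 and 10.4 CPM in chaetocin replicates 1 and 2 and at 5.88 and 3.81 in replicates 3 and 4. In romidepsin replicates 1 to 4 it was at 13.6, 8.95, 3.73 and 4.73 CPM, in F5446 replicates 2 to 4 at 8.08, 3.47 and 2.82, and in DMSO replicates 1 and 4 at 14.4 and 2.56. Every library numbered 1 or 2 was above every one numbered 3 or 4, in each treatment group. The means were 11.5 ± 2.70 (SD, n = 6) and 3.86 ± 1.14 CPM (SD, n = 7), a log2 difference of -1.53 (95% CI -1.93 to -1.13, adjusted p = 3.14e-06 by edgeR). Within DMSO, chaetocin, F5446 and romidepsin it was -2.46, -1.31, -1.35 and -1.37.

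MRPL32, a zinc-binding protein that a mitochondrial protease matures before it joins the ribosome, was at 94.2, 81.4, 66.3 and 65 CPM in chaetocin replicates 1 to 4 and at 84.8, 90.6, 70.2 and 69.4 in romidepsin replicates 1 to 4. It was at 101.5, 55.3 and 48.8 CPM in F5446 replicates 2 to 4 and at 121.5 and 46.0 in the DMSO pair. The sets did not overlap, and the log2 difference was -0.66 (95% CI -0.89 to -0.43, edgeR adjusted p = 0.000249). It was larger in DMSO (-1.40) and F5446 (-0.96) than in chaetocin (-0.42) and romidepsin (-0.33), but a test of unequal differences between treatments did not call it (edgeR adjusted p = 0.218).

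MRPL47, at the exit of the tunnel, had 50.1, 56.5, 42.2 and 36.8 CPM in chaetocin replicates 1 to 4, 59.9, 55.8, 41.5 and 47.0 in romidepsin, 56.5, 49.3 and 34.9 in F5446 replicates 2 to 4 and 52.9 and 38.6 in DMSO. The sets did not overlap. On the log2 scale they differed by -0.42 (95% CI -0.61 to -0.23, adjusted p = 0.00192 by edgeR). MRPL3 had 171.2, 166.1, 127.9 and 130.6 CPM in chaetocin, 177.2, 171.2, 149.5 and 117.3 in romidepsin, 166.6, 146.0 and 146.1 in F5446 and 165.8 and 150.3 in DMSO. It too did not overlap between sets, with a log2 difference of -0.31 (95% CI -0.46 to -0.15, edgeR adjusted p = 0.00526). These 4 genes were the members whose sets did not overlap, 4 of 76, all lower, beside 5.49% of all genes in either direction and 2.25% lower.

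**Figure D4:**
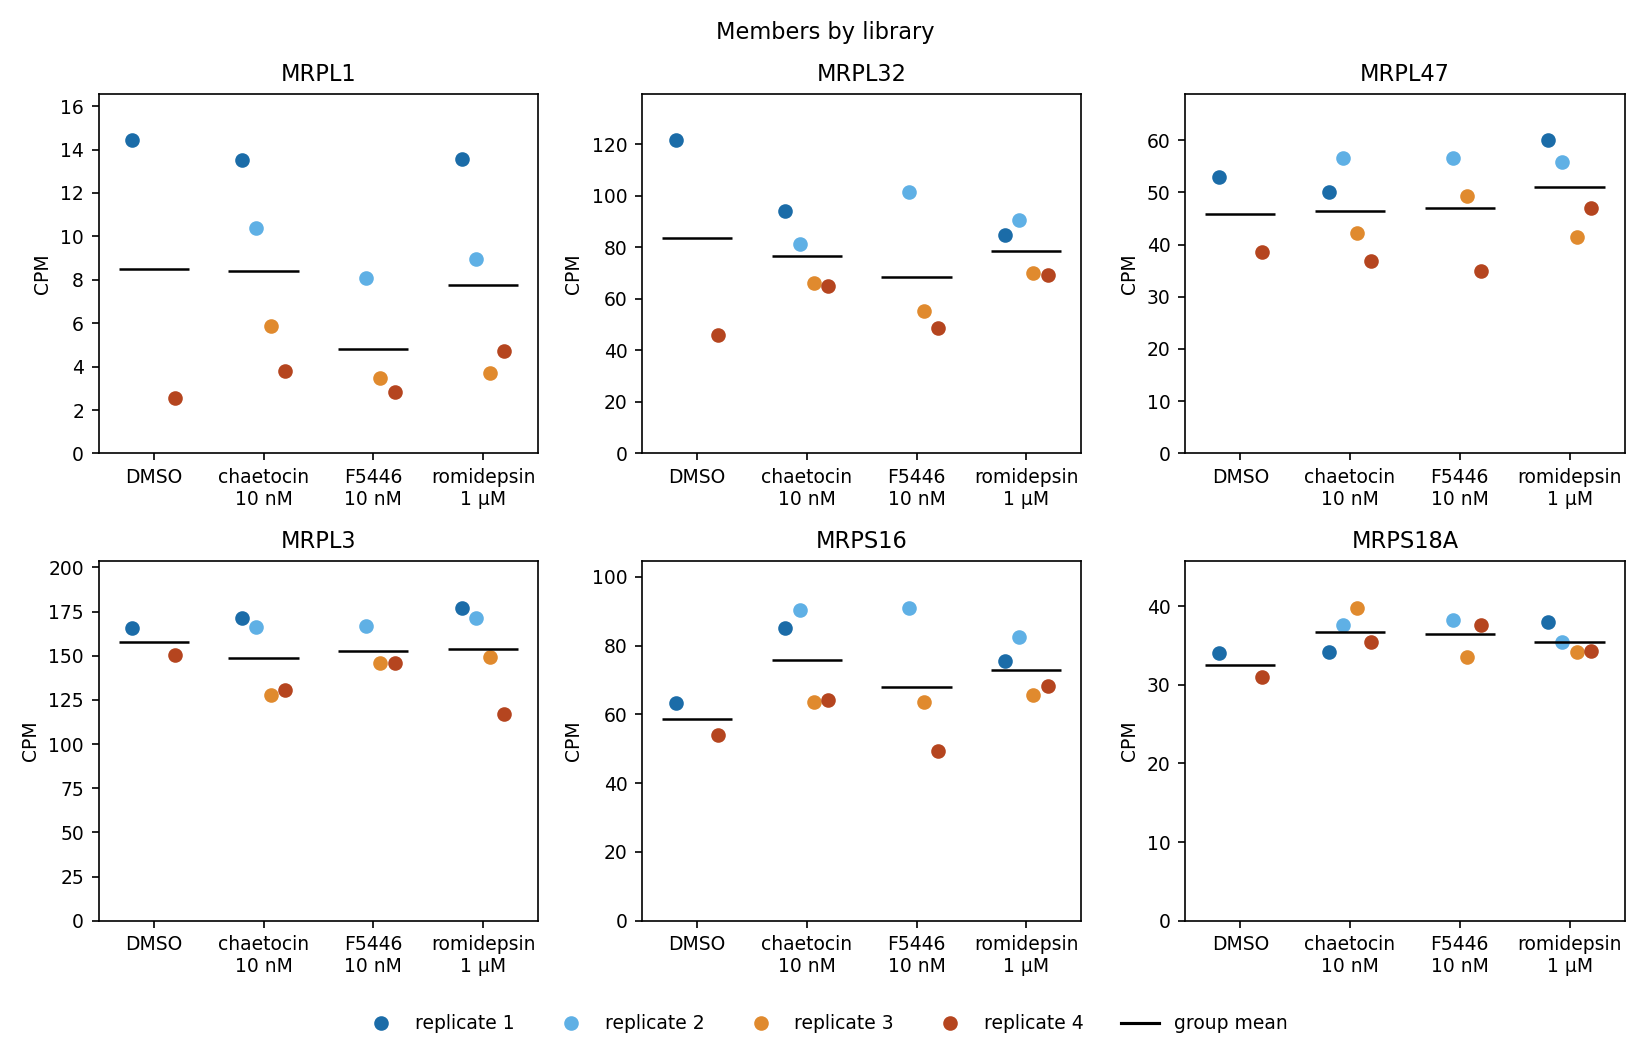
CPM of members in each of the 13 libraries, grouped by treatment and coloured by replicate number. MRPL1, MRPL32, MRPL47 and MRPL3 are lower in all libraries numbered 3 or 4 than in any numbered 1 or 2.

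MRPS16, given above, was at 91.1, 63.7 and 49.3 CPM in the F5446 libraries, and the sets overlapped only because DMSO replicate 1 was at 63.4 CPM. Its log2 difference was -0.40 (95% CI -0.58 to -0.23, adjusted p = 0.00146 by edgeR). MRPS11, of the platform of the small subunit, had -0.46 (edgeR adjusted p = 0.00113). MRPL12 fell from 13.6 ± 3.20 CPM (SD, n = 6) to 8.92 ± 1.03 (SD, n = 7), a log2 difference of -0.61 (edgeR adjusted p = 0.00415). MRPL15 had -0.64 (edgeR adjusted p = 0.00462) and was lowest in chaetocin replicate 3, at 20.2 CPM. The other 7 called genes, MRPL20, MRPL27, MRPL35, MRPL49, MRPS10, MRPS23 and MRPS25, had log2 differences from -0.41 to -0.29. MRPS36, MRPL2, MRPL54 and MRPS18B had the highest values, 0.28, 0.18, 0.17 and 0.15, and were not called.

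The 15 genes did not stand equally firm. Over 19 alternatives, MRPL1, MRPL3, MRPL32, MRPL47 and MRPS16 were called in all 19, and all 15 genes were below 0 in all 19. In the 8 chaetocin and romidepsin libraries, the groups that hold all 4 numbers, 6 members were called, beside 8.77% of all genes: the same 5 genes, lower, and MRPS36, higher (log2 difference 0.58, edgeR adjusted p = 0.0495). There, the medians were 0.02 in both subunits and 43 of 76 members were above 0, so the lower median of the whole list was not present in these 2 treatments. Without F5446 replicate 2, 9 members were called, beside 12.5% of all genes. By a test of unequal differences between treatments 0 of 76 members were called (edgeR), beside 0.0116% of all genes, with 18 of 76 (23.7%) at an unadjusted p under 0.05, beside 4.53%; DESeq2 was not run for that test.

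Other measures also differed between the sets. Mitochondrially encoded genes took 10.8 ± 1.41% of counts in numbers 1 and 2 (8.75 to 12.7%; SD, n = 6) and 7.95 ± 3.69% in 3 and 4 (5.22 to 15.9%; SD, n = 7). These sets overlapped. Chaetocin replicate 3 had the highest share of the 13 libraries, and romidepsin replicate 4, at 8.90%, was above F5446 replicate 2, at 8.75%. The 9 T cell markers summed to 1066 ± 111 CPM (909 to 1237) and 1384 ± 97.1 CPM (1212 to 1505), and the 4 B cell markers to 34.3 ± 5.46 CPM (29.8 to 42.4) and 67.2 ± 10.2 CPM (51.7 to 85.3). Fibroblast, epithelial and myeloid markers overlapped between the sets. Their part in the lower members was not tested.

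**Figure D5:**
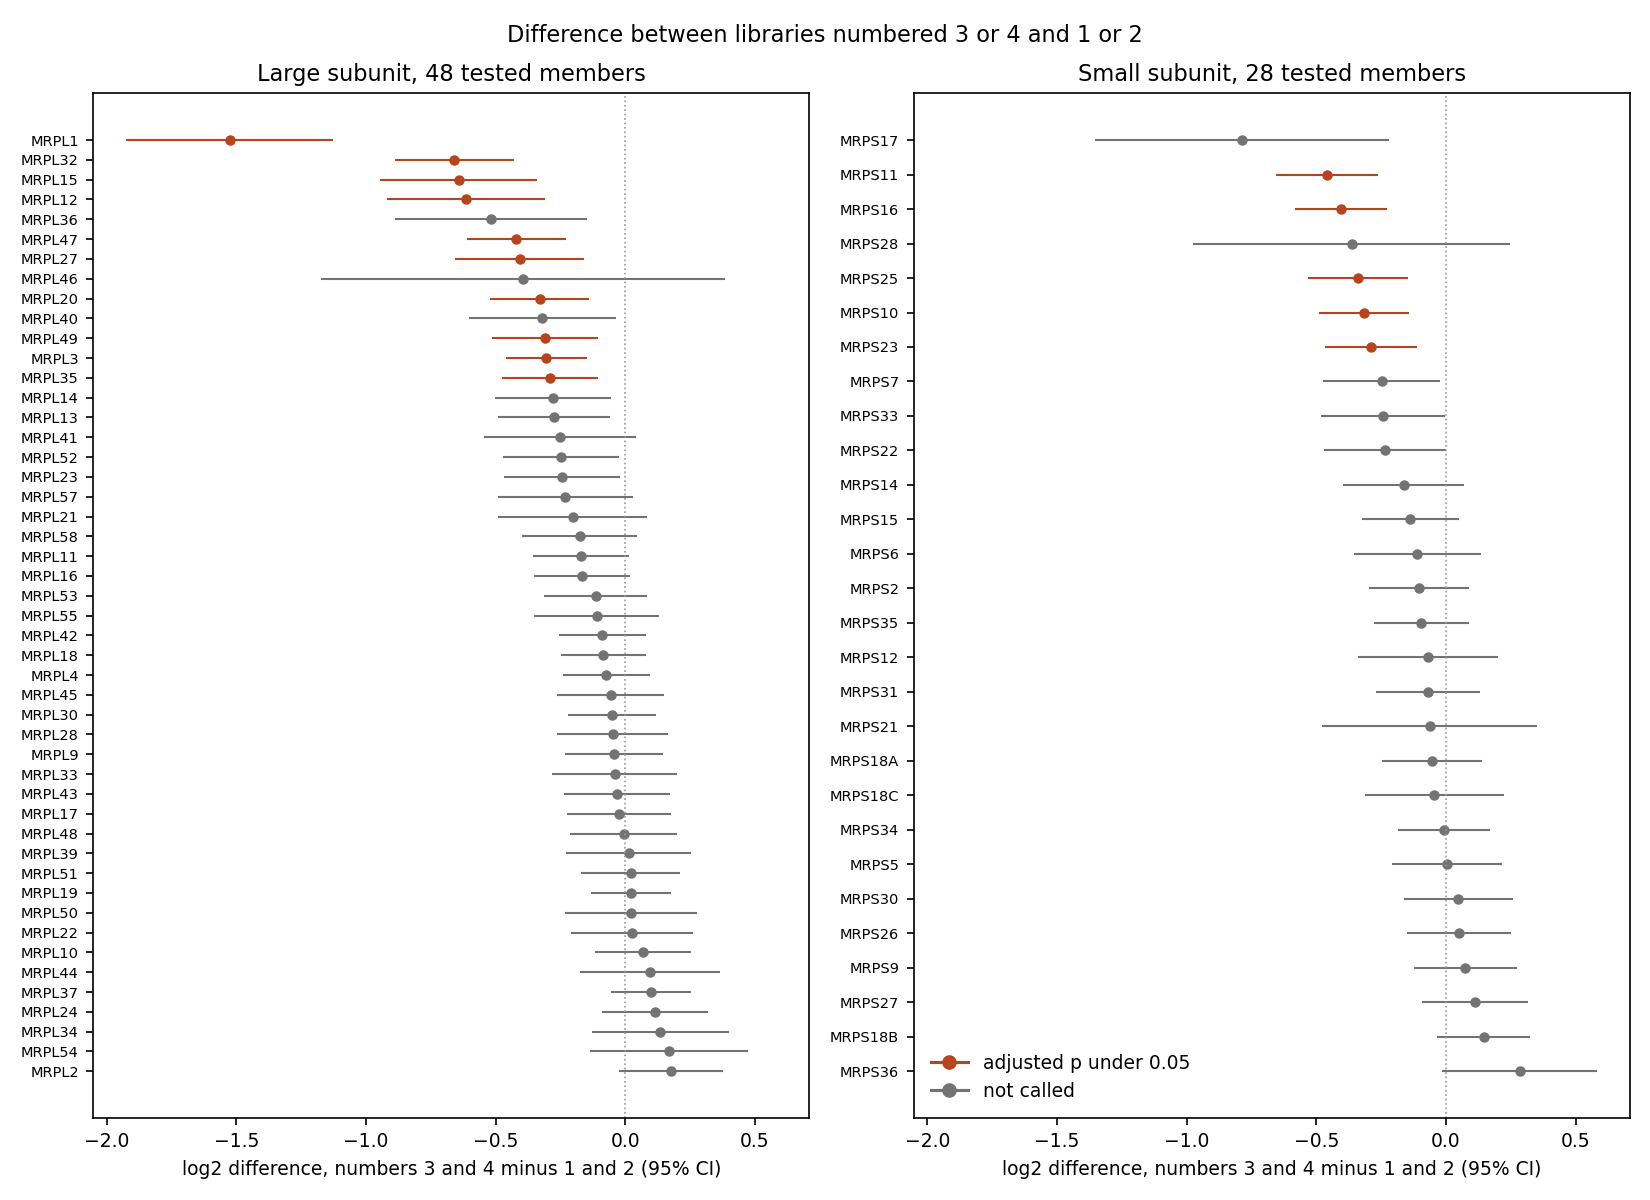
Log2 difference of each tested member between libraries numbered 3 or 4 and those numbered 1 or 2, ordered by value, with 95% CIs and called genes marked. MRPL1 lies lowest at -1.53, and all 15 called genes lie below 0.

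The promoters of the 5 genes called in all 19 alternatives are shown to let their start regions be compared. The stretches are the 120 bases before the RefSeq start of each gene on GRCh38.p14, read on the strand of the gene. They lie at chr4:77862710-77862829 (plus, MRPL1), chr7:42932256-42932375 (plus, MRPL32), chr3:131502972-131503091 (minus, MRPL3), chr3:179604647-179604766 (minus, 1 of 2 listed starts of MRPL47) and chr10:73252645-73252764 (minus, MRPS16). Capitals mark an ETS core (CCGGAAG) or an NRF1 core (GCGCATG).
MRPL1: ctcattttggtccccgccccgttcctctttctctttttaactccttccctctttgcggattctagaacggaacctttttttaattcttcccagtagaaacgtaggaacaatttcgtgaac
MRPL32: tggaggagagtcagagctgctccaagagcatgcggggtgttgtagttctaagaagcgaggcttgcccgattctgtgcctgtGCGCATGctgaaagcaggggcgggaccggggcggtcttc
MRPL3: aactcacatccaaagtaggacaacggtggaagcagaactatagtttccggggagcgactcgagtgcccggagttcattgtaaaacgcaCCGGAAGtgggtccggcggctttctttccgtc
MRPL47: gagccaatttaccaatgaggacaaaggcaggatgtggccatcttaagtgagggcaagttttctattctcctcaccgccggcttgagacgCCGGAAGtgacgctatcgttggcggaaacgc
MRPS16: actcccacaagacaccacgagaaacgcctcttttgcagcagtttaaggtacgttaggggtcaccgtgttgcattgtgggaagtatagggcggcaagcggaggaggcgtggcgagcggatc

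MRPL3 and MRPL47 hold the ETS core in these bases and MRPL32 the NRF1 core, whereas the stretches of MRPL1 and MRPS16 hold none of the cores searched on either strand. ETS proteins such as GABPA, NRF1 and YY1 are known to bind promoters of many nuclear genes for mitochondrial proteins. Windows of 300 bases (250 before to 50 after the start) were found for 69 of 78 members and searched on both strands. A gene counted where any of its windows matched, and the 69 members had 85 windows. The 27305 genes beside them were not selected by gene type or expression, so they are not a matched set. The ETS core was in 30 of 69 (43.48%; 18 of 42 large, 12 of 27 small), beside 12.16% of 27305 genes in the RefSeq table. The YY1 core (ATGGCGG) was in 24 (34.78%; 14 large, 10 small), beside 6.66%, and the NRF1 core in 7 (10.14%; 5 large, 2 small), beside 5.3%. At least 1 of the 3 cores was in 49 (71.01%; 30 large, 19 small), beside 20.81%. A match of 7 letters is a description and not a binding site, and since the NRF1 core ends with the letters that begin the YY1 core, both can match in overlapping bases.

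Lists by role held 90 other genes of mitochondrial translation, of which GTPBP5 was not found and MRM2 and PPARGC1A were not tested. Of the tested genes, 0 were called in the 4 comparisons of treatments by edgeR and by DESeq2. An unadjusted p under 0.05 was found by edgeR for 2 of them with chaetocin (beside 4.07% of all genes), 0 with F5446 (2.48%) and 1 with romidepsin (2.82%) against DMSO, and for 1 in chaetocin against F5446 (3.4%). Between the sets of replicate numbers, all 13 that were called were lower in numbers 3 and 4, beside 15.8% of all genes called and 7.69% called lower. They were 1 of 5 ribosome proteins with other names (AURKAIP1), 4 of 27 assembly factors (DDX28, GTPBP10, MRM3, TRUB2), 2 of 14 translation factors (MTRF1L, MRRF), 3 of 20 aminoacyl-tRNA synthetases and their partners (AARS2, RARS2, QRSL1) and 3 of 13 genes of mitochondrial transcription and RNA stability (TFAM, MTERF1, TRMT10C). TFAM, which packs mitochondrial DNA and starts its transcription, was at 139.2 ± 5.96 CPM in numbers 1 and 2 (SD, n = 6) and 118.0 ± 10.6 in 3 and 4 (SD, n = 7), a log2 difference of -0.24 (edgeR adjusted p = 0.0295). By edgeR, 0 of 8 regulators and 0 of 13 mitochondrially encoded proteins were called, with 2 of each at an unadjusted p under 0.05, beside 27.7% of all genes. The latter had a median log2 difference of -0.51, beside -0.03 for all genes, while the 2 rRNAs had 0.11 and 0.04.

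After group means were removed, members varied together over the 13 libraries. The median Pearson r between pairs was 0.40 within the large subunit (41 genes), 0.31 within the small subunit (24 genes) and 0.36 between subunits, beside 0.015 for 6741 genes, all with a mean of at least 20 CPM. The libraries share the differences between replicate numbers and the scaling, so these values are descriptive. Of 6676 other genes, those most alike to the summed members were POMP, a proteasome assembly factor (r = 0.957), HTR2B (0.954), OCIAD1 (0.951), TIMMDC1, an assembly factor of respiratory complex I (0.949), and RAD51C (0.947). The next were LYRM1, SIVA1, ARV1, BID and PSMB7, down to 0.937.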

How the data were processed

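The authors deposited raw counts per gene for all 13 libraries. The submitters' processing notes name bcl2fastq 2.20.0.422, cutadapt 1.8.1, HTSeq 0.6.1 and hg19; which aligner, annotation release and strand setting were used is not given in the sources used here. The F5446 treatment tags differ in their last digit, so titles gave the groups. Counts were fitted for 17252 genes with edgeR 4.0.16 (R 4.3.3, TMM, robust quasi-likelihood, two-sided) with treatment as the term; p-values were adjusted by Benjamini-Hochberg over all genes, and called means under 0.05. CPM values use the normalized library sizes; log2 CPM had a prior count of 2. DESeq2 1.42.0, other scalings and filters, and leaving out each library were alternatives. Fits with 1 DMSO library assume that it varies like the others. The fit of chaetocin and romidepsin libraries alone and the test of unequal differences were added after the data were seen. Named genes were the called members, the 2 highest and lowest per subunit and comparison, the most and least variable, the most abundant, the untested and those fixed by role. Members and lists were chosen with earlier results of these data known. Exon lengths and overlaps came from GENCODE 29. The code was tested on simulated data. The level of 1 cell type marker is not reported here.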

Additional observations from a re-analysis of the deposited data

Results flagged for a closer look

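In groups of 4 libraries, 6 of 120 groups of values for named members held 1 library far from the other 3. Chance gives about 1 in 20 for independent groups, a like share. These groups share libraries, and some members were named for their spread, so that rate is only a rough guide. Chaetocin replicate 3 stood apart for 3 genes. It had 59.7 CPM of MRPL22, where the other chaetocin libraries had 38.2 to 41.6. It had 119 CPM of MRPS21, beside 64.8 to 70.7, and 18.4 CPM of MRPS22, beside 30.2 to 32.1. Romidepsin replicate 3 had 55.4 CPM of MRPL9, beside 44.5 to 46.1, and 19.1 CPM of MRPL54, beside 11.8 to 12.8. Romidepsin replicate 2 had 39.5 CPM of MRPL27, beside 27.8 to 29.1 in romidepsin replicates 1, 3 and 4.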

How the results depend on the processing

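In the comparisons of treatments, 0 members were called under each alternative run. Leaving out 1 library at a time, the median log2 fold change of the large and the small subunit ran from -0.0895 to 0.26 and 0.033 to 0.33 (chaetocin against DMSO), -0.11 to 0.24 and -0.042 to 0.23 (F5446 against DMSO), -0.18 to 0.15 and -0.10 to 0.21 (romidepsin against DMSO), and -0.05 to 0.15 and 0.01 to 0.19 (chaetocin against F5446). Between the sets of replicate numbers, 9 to 19 members were called (9 without F5446 replicate 2, 19 without chaetocin replicate 3, 11 without either DMSO library) and the medians ran from -0.17 to -0.04 and -0.16 to -0.04. With chaetocin and romidepsin libraries only, 6 were called and the small-subunit median was 0.016. The log2 ratio of large to small subunit was 1.19 by structure and 0.16 as a difference of mean log2 CPM, and the mean summed CPM was 4231 in place of 3838 when scaled without mitochondrially encoded genes. Signs of members that were not called changed when 1 library was left out. The log2 values ran, in F5446 against DMSO, from -1.58 to 0.90 for MRPL1, -0.82 to 0.57 for MRPL32, -0.52 to 0.073 for MRPS25, -0.35 to 0.0085 for MRPS14 and -0.027 to 0.58 for MRPS10. In chaetocin against DMSO they ran from -0.42 to 0.013 for MRPL23, -0.49 to 0.11 for MRPS6 and -0.32 to 0.045 for MRPS27. In romidepsin against DMSO they ran from -0.62 to 0.076 for MRPL12 and -0.32 to 0.050 for MRPS27, and in chaetocin against F5446 from -0.38 to 0.021 for MRPL33 and -0.22 to 0.026 for MRPS6. With a replicate block, 0 members were called and the large-subunit medians were 0.07, 0.03, -0.04 and 0.01 in the order above, with 0.15, 0.06, 0.0044 and 0.06 in the small subunit. With a term for numbers 1 and 2 against 3 and 4 they were 0.11, 0.09, 0.01 and 0.01 (large) and 0.18, 0.10, 0.03 and 0.05 (small). The labels do not say what libraries of 1 number share. Deviations of same-numbered chaetocin and F5446 libraries from their group means correlated at 0.15, 0.07 and 0.08 over genes, and F5446 replicates 2 and 3 correlated best with another number. With DMSO, same-numbered pairs correlated at 0.16 and 0.11 (chaetocin), 0.13 and 0.07 (romidepsin) and 0.11 (F5446). Pairs of other numbers reached 0.18 (F5446 replicate 2 with DMSO replicate 1) and 0.11 (romidepsin replicate 3 with DMSO replicate 4). As DMSO had 2 libraries, each value with 1 of them has the opposite sign with the other. MRPL38 and MRPS24 had too few counts to be tested.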
